A study of Mus musculus with 26 samples.

Results

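Kupffer cells are the resident macrophages of the liver sinusoids. Their chromatin response to lipopolysaccharide (LPS), the endotoxin of Gram-negative bacteria, was measured in BALB/cJ mice by ATAC-seq, which sequences the DNA ends that a transposase cuts in open chromatin. The comparison used every BALB/cJ library of the series, 6 of 26 libraries in all. These were 2 libraries from male mice fasted overnight and killed 2 h after Escherichia coli LPS was given intraperitoneally at 0.1 mg/kg, and 4 libraries from equally fasted mice that were not injected. Mice were 8 to 12 weeks old, and there was no vehicle injection in the controls. BALB/cJ is an inbred strain and neither group carried a transgene. All livers were perfused and digested with flavopiridol, a transcription inhibitor, and the cells were sorted on the surface markers of Kupffer cells from non-parenchymal cells. For context, 3 LPS and 4 control libraries of C57BL/6J mice and 5 LPS and 4 control libraries of the CB6F1/J hybrid, from a BALB/cJ mother and a C57BL/6J father, were read beside them. The series also holds 4 control libraries of A/J mice, which entered only the shared estimate of the spread.

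The table held tags at 94171 autosomal peaks of open chromatin, each about 200 bp long and counted in a 1000-bp window around its centre, and 91337 of them had enough tags in BALB/cJ to be tested. Tags in peaks numbered 4577994 and 4555824 in the LPS libraries, against 3147558, 4584816, 3254539 and 47196703 in the control libraries. Values below are normalised counts, the tags of a library scaled to a common library size. Control library names carry another date than the LPS names, a trimming mark that the LPS names lack and the word Chow where the LPS names have Fasted, although the labels call the controls equally fasted. Control counts also hold fractional tags, where the LPS counts are whole numbers. Library date, trimming, form of the counts, feeding as named and treatment therefore cannot be told apart in BALB/cJ. Nothing in the labels says that replicates are separate mice, so the p-values measure the spread between these libraries. In bulk cells a change in accessibility per cell and a change in which cells were sorted cannot be told apart. The strain labels matched the data. At 163 peaks that were open only in C57BL/6J controls, the median was 0 in both BALB/cJ LPS libraries, and at 127 peaks open only in BALB/cJ controls it was 40.1 and 36.9 in the BALB/cJ LPS libraries, against 37.1 to 52.3 in the BALB/cJ control libraries.

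LPS is sensed by TLR4 with its partners MD-2 and CD14. The adaptors MyD88 and TRIF relay the signal to kinases that free NF-kB from its inhibitors and that activate MAP kinases and, through them, the AP-1 factors of the FOS and JUN families. In macrophages these factors act largely at distal enhancers that the lineage factor PU.1 has already marked, they induce cytokines, chemokines and interferon beta within hours, and they induce the inhibitors that end the response.

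The sequences that carry the main pattern are shown here because each belongs to a peak that gained accessibility after LPS, most of them from few control tags, and because the AP-1 letters in most of them were the letters most unevenly shared between peaks that opened and peaks that closed. The peak is named by its nearest transcription start and its distance from it, negative when upstream, which is a position and not a target assignment. All coordinates are those of the table (mm10), and the bases are the GRCm38 (mm10) reference, plus strand, which is C57BL/6J and not BALB/cJ sequence. Capitals mark AP-1 letters (TGANTCA) and, in Il10, Batf and Ifnb1, NF-kB letters (GGNNTTTCC), on either strand.
Tnip1 26.7 kb, chr11:54936117-54936317: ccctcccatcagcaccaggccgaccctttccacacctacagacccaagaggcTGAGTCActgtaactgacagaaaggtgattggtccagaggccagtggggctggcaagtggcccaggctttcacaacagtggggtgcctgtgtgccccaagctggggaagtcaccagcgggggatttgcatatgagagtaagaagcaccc
Bach1 26.0 kb, chr16:87724866-87725066: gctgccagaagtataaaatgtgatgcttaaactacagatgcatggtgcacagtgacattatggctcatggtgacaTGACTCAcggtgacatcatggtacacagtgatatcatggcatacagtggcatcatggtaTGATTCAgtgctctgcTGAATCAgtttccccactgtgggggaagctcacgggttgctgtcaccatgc
Socs1 30.9 kb, chr16:10754555-10754755: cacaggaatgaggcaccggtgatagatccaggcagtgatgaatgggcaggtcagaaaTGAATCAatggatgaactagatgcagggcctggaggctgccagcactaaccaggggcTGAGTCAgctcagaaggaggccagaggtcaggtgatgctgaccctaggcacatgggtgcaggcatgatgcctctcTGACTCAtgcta
Atf3 -6.76 kb, chr1:191189993-191190193: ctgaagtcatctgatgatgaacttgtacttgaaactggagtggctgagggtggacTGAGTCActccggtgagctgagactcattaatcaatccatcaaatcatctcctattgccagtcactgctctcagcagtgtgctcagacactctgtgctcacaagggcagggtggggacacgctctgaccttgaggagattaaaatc
Nfkbia 25.6 kb, chr12:55466918-55467118: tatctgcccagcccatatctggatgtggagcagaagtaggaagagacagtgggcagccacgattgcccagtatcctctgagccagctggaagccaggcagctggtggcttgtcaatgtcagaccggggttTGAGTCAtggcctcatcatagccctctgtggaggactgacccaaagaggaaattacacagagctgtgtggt
Il10 -18.8 kb, chr1:131000916-131001116: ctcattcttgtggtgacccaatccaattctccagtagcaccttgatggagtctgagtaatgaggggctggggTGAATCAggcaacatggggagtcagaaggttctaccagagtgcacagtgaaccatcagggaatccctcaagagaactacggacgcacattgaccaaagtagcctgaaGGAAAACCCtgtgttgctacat
Batf 16.9 kb, chr12:85703563-85703763: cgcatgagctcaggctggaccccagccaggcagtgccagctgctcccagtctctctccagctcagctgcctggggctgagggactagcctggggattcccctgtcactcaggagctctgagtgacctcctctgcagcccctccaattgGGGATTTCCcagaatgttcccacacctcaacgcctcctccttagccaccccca
Ifnb1 start, chr4:88522788-88522988: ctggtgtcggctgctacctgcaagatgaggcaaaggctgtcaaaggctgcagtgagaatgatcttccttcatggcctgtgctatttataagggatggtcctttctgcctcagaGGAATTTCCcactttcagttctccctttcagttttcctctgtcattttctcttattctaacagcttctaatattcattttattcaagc

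Accessibility differed between LPS and control libraries in both directions, and a peak is said below to open or close only where it was called. edgeR's quasi-likelihood test called 14915 peaks more open in LPS cells (16.3% of tested peaks) and 10347 less open (11.3%) at a Benjamini-Hochberg adjusted p under 0.05 and an absolute log2 ratio over 1, together 27.7% of tested peaks. The groups did not overlap at 14675 of the peaks that opened and at 9859 of those that closed, and over all tested peaks it was so at 23285 in the direction of opening and 21531 in that of closing. Peaks that opened had a median of 36.3 in LPS cells and 7.69 in control cells. Peaks that closed had a median of 14.8 in LPS cells and 46.2 in control cells. The gains were larger than the losses, with 3896 peaks past a log2 ratio of 3 and 1028 peaks under -3. When counts were corrected for the GC content of the peaks, 11819 peaks opened and 13077 closed, so that the share of calls in the direction of opening was 59.0% without and 47.5% with the correction, and the median log2 ratio of all peaks was -0.06 without and -0.20 with it. Of the calls made without the correction, 11296 of those opening and 8127 of those closing were also made with it, and 0 changed direction. Without LPS replicate 2 the counts were 10194 and 5706. The study's peak lists, made per group from its replicates, did not enter this test: 7769 of the peaks that opened were in no BALB/cJ control list, and 4744 of those that closed were in no BALB/cJ LPS list.

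**Figure D1:**
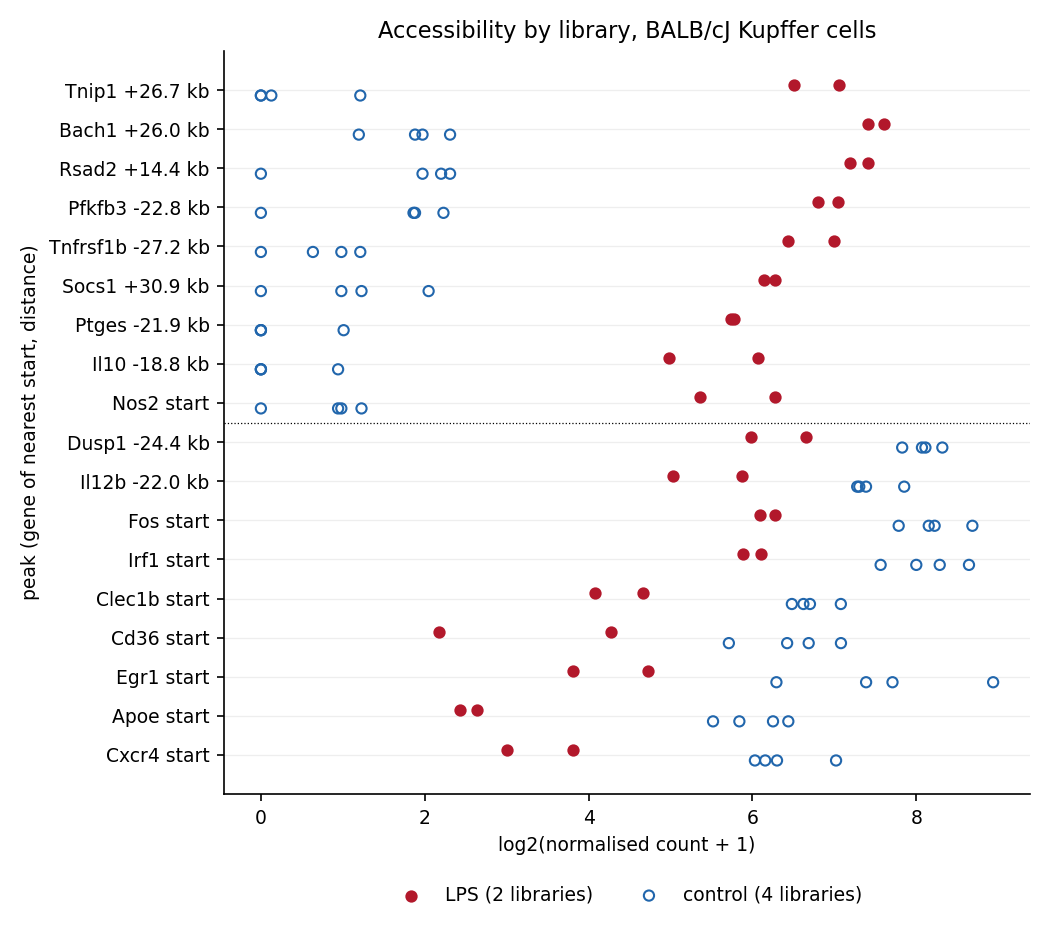
Normalised count (log2 of the count plus 1) of 18 named peaks in each BALB/cJ library. LPS libraries are drawn beside control libraries for each peak. The 9 peaks above the dotted line opened and the 9 below it closed, and in all 18 the LPS libraries lie apart from every control library. They come from the named peaks, which were picked largely by ratio or p. This separation therefore follows in part from the choice.

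The peaks with the largest gains, among those with a mean normalised count of at least 20 in the higher group, lay away from starts. They were almost closed in the control libraries, which a ranking by ratio favours. The largest of those with any control tag was in an intron of Tnip1, 26.7 kb into the gene, which encodes a ubiquitin-binding inhibitor of NF-kB. It had normalised counts of 132 and 89.7 in the LPS libraries, against 1.32, 0, 0 and 0.0921 in the control libraries (log2 8.85 ± 0.74 SE, adjusted p = 1.57e-09 by edgeR). The LPS libraries stood far above all 4 controls, and the rule for naming these peaks asked for groups that do not overlap. A peak at -4.27 kb from Slamf1 (chr1:171762761-171762961), a receptor that macrophages use in bacterial uptake and TLR4 signalling, had 35.7 and 62.4 in the LPS libraries and no tag in any control. Against a floor of 3 tags over the control group it was at least 219-fold higher. By the same bound, a peak at -2.81 kb from Ptafr, the receptor for platelet-activating factor, was at least 142-fold higher, and one at -14.5 kb from Slco2a1, a prostaglandin transporter, at least 139-fold higher. The others with no control tag lay near Papss1 (at least 162-fold), Aff1 (131), Rdh10 (119), Hlcs (117), Cyp2s1 (117) and Ankrd50 (113). Peaks near Hdac9, Lzts1, Alkbh3 and Itgb8 had at most 1.34 in any control and 53.6 to 89.7 in the LPS libraries. At the Hdac9 locus, which encodes a histone deacetylase, 17 of 23 tested peaks opened and 0 closed.

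The peaks with the largest losses held mixed kinds of loci. The largest, at -44.8 kb from the pheromone receptor gene Vmn2r87 (chr10:130542094-130542294), had 0 tags in both LPS libraries against 80.4, 93.6, 250 and 50.2 in the controls, at least 50.5-fold lower against the same kind of floor. It was called less open in C57BL/6J as well. Of 187 closing peaks with no tag in either LPS library, 60 (32.1%) lay in an annotated repeat, against 16.3% of all tested peaks, and 42 of them had a mean under 1 in C57BL/6J LPS libraries. An intronic peak of Clec4f (chr6:83652117-83652317), the C-type lectin used as the defining marker of mouse Kupffer cells, had 0.871 and 0 in the LPS libraries, against 26.4, 7.80, 49.7 and 40.6 in the controls (log2 -5.92 ± 1.10 SE, adjusted p = 8.89e-05). Every LPS value was below every control value, which the rule for naming these peaks also asked for. A peak next to the start of Lepr, the leptin receptor, had 0 and 0.879 in the LPS libraries and 5.85 to 43.0 in the controls. Peaks at -3.61 kb from Fxyd2, 3.26 kb into Epb41l2, and near the starts of Mak, Rpn1 and Fbl were between log2 -5.45 and -4.35.

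Position and base composition separated the peaks that opened from those that closed. Within 200 bp of a start 2.39% of tested peaks opened and 23.5% closed, whereas beyond 100 kb 22.2% opened and 8.84% closed. Opening became more frequent with each step away from a start, at 8.94%, 17.6%, 18.5% and 20.5% in the distance classes that end at 1, 5, 20 and 100 kb. Without the GC correction closing was the more frequent call within 1 kb and opening in each class beyond it. With the correction 4.29% opened and 14.4% closed within 200 bp, and 17.4% opened and 15.0% closed beyond 100 kb. Opening still became more frequent with each step, but closing was then also the more frequent call at 1 to 5 kb (13.5% opened and 14% closed) and at 5 to 20 kb (14% and 14.9%), and its share was 12.2% to 15.0% over the classes. The GC content of the peaks ran with distance. Among peaks within 1 kb of a start, 1.17% of those over 60% GC opened and 26.7% closed, and 4.53% and 10.4% with the correction. Of those up to 50% GC 16% opened and 9.64% closed, which turned to 10.8% and 18.2% with the correction. Peaks over 60% GC that lay beyond 1 kb closed more than they opened only without it (5.26% opened and 16.9% closed, against 9.01% and 8.25% with it). The part of library GC in the loss at starts was not tested beyond this correction.

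**Figure D2:**
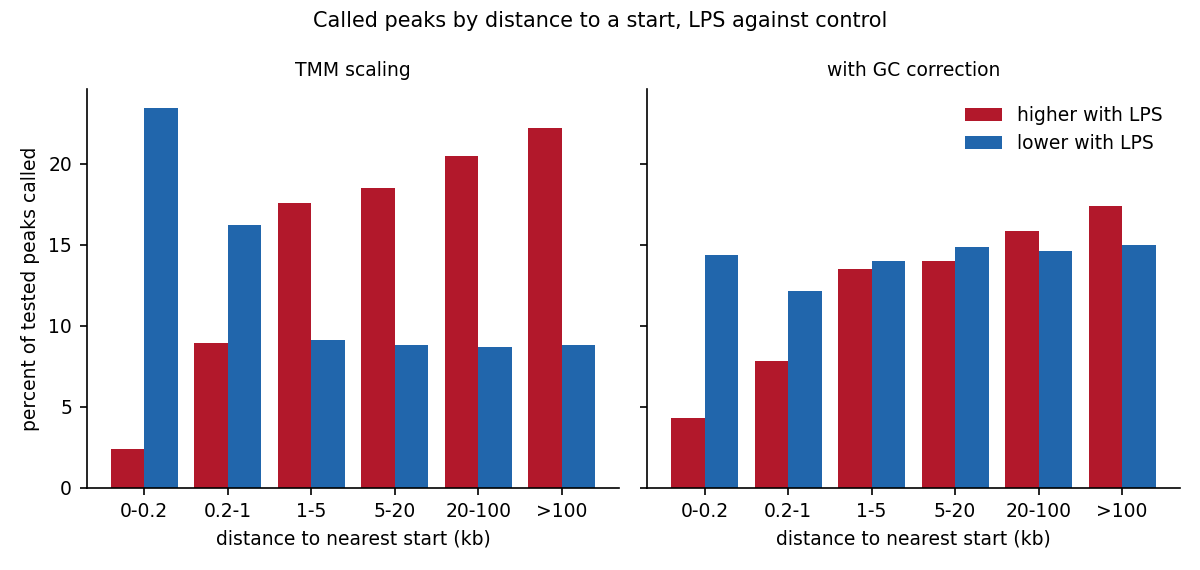
Share of tested peaks called more open (higher) and less open (lower) in LPS than in control cells, by distance to the nearest start, in percent, without and with correction for GC content. Opening is 2.39% within 200 bp and 22.2% beyond 100 kb; the high share of closing within 200 bp is 23.5% without and 14.4% with the correction.

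Every one of the 14 motifs searched is a short run of letters looked for on both strands of the 201 bases of each peak. The AP-1 letters TGANTCA were in 44.0% of peaks that opened, 3.05% of those that closed, 9.32% of those not called and 14.3% of all tested peaks. With the GC correction the shares were 46.9% of the opening and 4.54% of the closing peaks. Of the 13032 peaks with AP-1 letters, 50.3% opened and 2.42% closed, and their median log2 ratio was 1.20, against -0.20 in peaks without them. The share that opened rose with the number of matches, from 10.7% with none through 47.3% with 1 match and 74.5% with 2 to 82.4% with 3 or more (125 peaks). The same order held with the GC correction, at 8.01%, 39.5%, 67.2% and 75.2%. The forms TGAGTCA and TGACTCA went with opening in 52.6% of their peaks, and TGAATCA or TGATTCA without the others in 41.8%.

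The place of the match in the peak also differed. Peaks with a match within 25 bp of their centre opened in 57.9% of cases, and those whose nearest match was more than 75 bp away in 33.4%. Among peaks with the letters, a match lay within 25 bp of the centre in 45.0% of those that opened, 33.5% of those not called and 26.6% of those that closed. The larger the gain, the more common the letters were: 33.0% of peaks with a log2 ratio of 1 to 2, 45.4% of those of 2 to 3 and 61.7% of those above 3. They were also more common in opening peaks absent from the control peak list (49.6%) than in those on it (37.8%). In a search of all 7-mers, TGACTCA with its reverse complement came first of 6911 by the ratio of its share in opening peaks to its share in all peaks beyond 1 kb, at 36.9% of 13789 opening, 13.3% of all 70958 and 2.74% of 6274 closing peaks. A match describes letters in a window and does not name the factor bound.

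**Figure D3:**
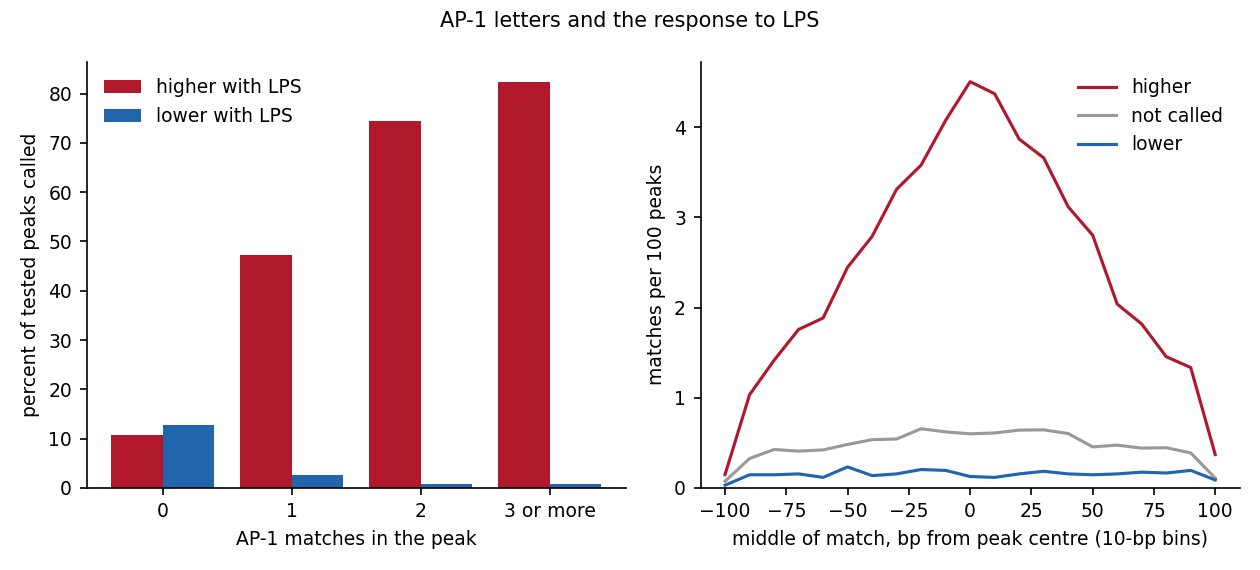
AP-1 letters and opening after LPS. Left, share of tested peaks that were higher or lower in LPS than in control cells by number of matches (10.7%, 47.3%, 74.5% and 82.4% higher); right, AP-1 matches per 100 peaks in each 10-bp bin around the peak centre, for peaks called higher, lower and not called, with the highest values in the opening peaks near the centre.

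Other letters were less uneven. NF-kB letters GGNNTTTCC were in 7.24% of opening, 4.40% of closing and 5.32% of all tested peaks, and in peaks without AP-1 letters they went with opening in 16.6% and closing in 10.6%, against 10.7% and 12.8% of all peaks without AP-1 letters. With the GC correction these shares were 12.2% and 14.2%, against 8.01% and 15.9%. C/EBP letters TTGCNNAA were in 13.6% of opening, 9.08% of closing and 11.5% of all peaks. The interferon-response letters GAAANNGAA were in 8.70%, 7.20% and 8.84%, so that interferon-type letters were no more common in opening peaks than in all of them at 2 h. The macrophage lineage letters GAGGAAGT of PU.1 were less common in opening peaks (5.94%) than in all peaks (8.66%), and 8.18% of PU.1 peaks without AP-1 letters opened, while 34.2% of those with both did. The letters of MAF factors TGCTGANTC share bases with the AP-1 letters, and where the AP-1 letters were missing 12.2% of their peaks opened, against the 10.7% of all peaks without AP-1 letters. The letters GGGGCGGGG of SP and KLF factors were in 0.865% of opening and 7.21% of closing peaks, but in 1.99% and 2.51% with the GC correction. Letters for CRE, TFE, STAT, RUNX, CTCF, RBPJ and EGR factors (TGACGTCA, TCACGTGA, TTCCNGGAA, TGTGGTTT, CCACNAGGG, CGTGGGAA and GCGTGGGCG) were each in at most 2.04% of opening peaks and 1.88% of closing peaks. Those of EGR, CRE, TFE and RBPJ were rarer in opening than in closing peaks, and those of STAT, RUNX and CTCF more common. EGR letters were in 0.0469% of opening and 0.512% of closing peaks, but in 0.152% and 0.130% with the GC correction. CRE letters were in 0.429% and 1.34%, or 0.474% and 0.887% with it, and TFE letters in 0.241% and 0.735%, or 0.254% and 0.474%.

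The gene lists below are read against all tested peaks, of which 16.3% opened and 11.3% closed, or 12.9% and 14.3% with the GC correction. Within 1 kb of a start 5.53% of all tested peaks opened and 20.0% closed, or 5.97% and 13.3% with the correction. The peaks over the starts of Tlr4 and Cd14 were not called. Of 178 tested peaks near the TLR4 complex genes 20 opened (11.2%) and 15 closed (8.43%), with a median log2 ratio of -0.16, against -0.06 for all peaks. The correction turned the balance to 15 open and 34 closed (median -0.51). The start of Tlr4 had 181 and 202 in the LPS libraries, against 382, 342, 377 and 383 in the controls, and did not reach the fold threshold (log2 -0.95, adjusted p = 0.000122). The start of Cd14, whose protein hands LPS to TLR4, had log2 -0.68 and was not called either, although a neighbouring Cd14 peak at -879 bp closed (log2 -1.79). A peak 64.2 kb past the Tlr4 start (chr4:66891683-66891883) had 82.8 and 117 in the LPS libraries, against 0, 1.95, 8.05 and 1.66 in the controls (log2 5.38 ± 0.64 SE, adjusted p = 1.76e-07). The Tlr2 locus, which encodes the lipoprotein receptor, held changes in both directions within a few kilobases. Its peak at -23.9 kb had 49.7 and 47.5 in the LPS libraries, against 5.27, 4.88, 2.68 and 4.33 in the controls (log2 3.46), while its peak at -21.5 kb had 147 and 130, against 272, 454, 401 and 326 (log2 -1.39). An exonic peak of Cd180, a TLR4 homologue, had log2 5.58. The start of Cd36 (chr5:17835859-17836059), a scavenger receptor, had 18.3 and 3.52 in the LPS libraries, against 51.4, 84.8, 102 and 134 in the controls (log2 -3.12 ± 0.50 SE, adjusted p = 1.15e-05).

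The adaptors and proximal kinases opened more broadly, with 67 of 240 peaks more open (27.9%), 13 less open and a median of 0.41, or 56 and 20 with the GC correction. Tab2, an adaptor of the kinase TAK1, had 14 of its 24 peaks open, Map3k8 (the kinase TPL2) 13 of 38 and Peli1, an E3 ligase of the TLR pathways, 11 of 26. The Tab2 peak 9.85 kb into the gene (chr10:7943115-7943315) had 41.8 and 47.5 in the LPS libraries, against 0, 1.95, 1.34 and 0.645 in the controls (log2 5.63). An intronic peak of Traf3, which carries the TRIF signal towards interferon, had log2 3.05. Of the NF-kB subunits and their kinases 25 of 103 peaks opened and 13 closed (median 0.20, and 21 and 13 with the GC correction), and 12 of the 25 lay at Nfkb1, which encodes p105 and p50. Its intronic peak at 2.34 kb had 54.9 and 90.6 in the LPS libraries, against 7.91, 17.6, 14.8 and 5.71 in the controls (log2 2.81). A peak in Bcl3, a nuclear partner of p50, had log2 2.42. At Rel, which encodes c-Rel, a peak at -23.2 kb opened (27.0 and 18.5, against 2.64, 4.88, 2.68 and 1.84, log2 3.04), whereas its start had 74.0 and 72.1 in the LPS libraries, against 204, 327, 318 and 206 in the controls (log2 -1.84). With the GC correction the Rel start had log2 -0.89 and was no longer called.

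Among the inhibitors that end the response, Nfkbia opened at a distal peak and closed at its start. Of 295 peaks of the feedback list 61 opened (20.7%) and 33 closed (11.2%, median -0.02), or 49 and 51 with the GC correction. Of its 45 peaks within 1 kb of a start 4 opened (8.89%) and 11 closed (24.4%), shares near those of all peaks at starts. Nfkbia encodes IkB alpha, the inhibitor that NF-kB itself induces. Its peak at 25.6 kb, beyond the end of the gene, had 238 and 270 in the LPS libraries, against 38.2, 22.4, 41.6 and 31.5 in the controls (log2 2.95 ± 0.32 SE, adjusted p = 3.63e-08). Its start (chr12:55492485-55492685) had 81.9 and 122 in the LPS libraries, against 344, 375, 408 and 248 in the controls (log2 -1.74 ± 0.23 SE, adjusted p = 8.35e-07), and neither peak's groups overlapped. The start kept its call with the GC correction (log2 -1.15), while the neighbouring intronic peak at 672 bp lost it (log2 -1.48 without and -0.65 with the correction). At Tnip1, whose intronic peak opens the account above, 10 of 18 peaks opened and 0 closed. The Socs1 peak at 30.9 kb, near the gene of an inhibitor of JAK kinases, had 76.7 and 69.5 in the LPS libraries, against 0, 0.975, 1.34 and 3.13 in the controls (log2 5.00 ± 0.62 SE, adjusted p = 3.45e-07), and holds 3 of the AP-1 matches printed above. Tnfaip3, the ubiquitin editor A20, had a peak at -3.87 kb with log2 3.94. Tnip3 was an exception among starts, with 87.1 and 85.3 in the LPS libraries, against 18.5, 50.7, 30.9 and 19.3 in the controls (log2 1.57, adjusted p = 0.00229).

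**Figure D4:**
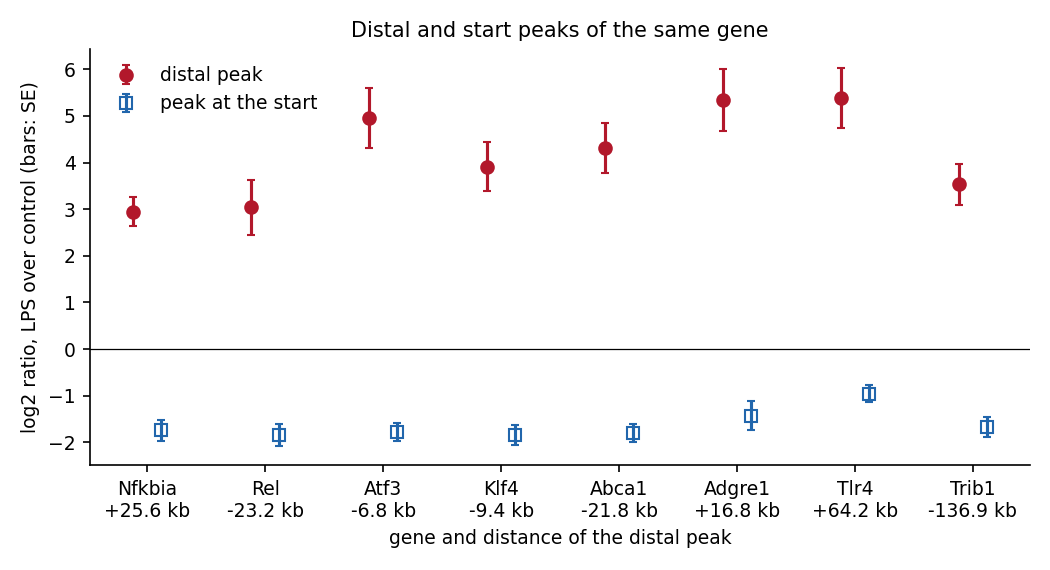
Log2 ratio of LPS to control (bars are SE) for a distal peak and the start peak of 8 genes. The genes were chosen as examples of a distal peak above 0 with a start peak below it, so these signs follow from the choice. Starts that opened, such as those of Tnip3, Nos2 and Ccr1, are not drawn. The Tlr4 start (log2 -0.95) did not reach the fold threshold, and the Rel and Trib1 starts lost their call with the GC correction.

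The genes of the MAP kinase phosphatases and of mRNA decay, which shorten the response, divided by gene. Over the list 62 of 287 peaks opened and 56 closed (21.6% and 19.5%, median -0.10), or 49 and 57 with the GC correction, and at its 32 peaks near starts 2 opened and 16 closed, or 1 and 11. Dusp1, which dephosphorylates p38 and JNK, had 4 peaks open and 13 closed of 34, Dusp6 3 and 14 of 37, and Zfp36, the mRNA decay factor TTP, 0 and 6 of 9. The Dusp1 peak at -24.4 kb (chr17:26532776-26532976) had 99.3 and 62.4 in the LPS libraries, against 276, 226, 318 and 268 in the controls (log2 -1.74 ± 0.21 SE, adjusted p = 1.5e-07). In contrast, Dusp2 had 5 peaks open and 0 closed of 8, with 165 and 170 at -13.0 kb in the LPS libraries, against 29.0, 53.6, 59.1 and 25.5 in the controls (log2 2.07). Spred1, an inhibitor of the RAS pathway, had 11 of 24 peaks open and 2 closed. Trib1, a pseudokinase that directs protein breakdown, opened at -137 kb (27.0 and 13.2, against 3.96, 1.95, 2.68 and 1.20, log2 3.54) and closed at its start (log2 -1.67, and -0.85 with the GC correction, when it was not called).

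The genes that encode AP-1 proteins themselves closed more often than they opened, although AP-1 letters marked the peaks that opened. Of 296 peaks of the FOS, JUN, ATF and BATF genes 43 opened and 66 closed (14.5% and 22.3%, median -0.27), or 35 and 69 with the GC correction, and of the 43 near starts 0 opened and 15 closed, or 2 and 12. Fos had 5 peaks open and 18 closed of 48, Fosb 0 and 14 of 19, and Jun 2 and 7 of 20. The Fos start (chr12:85473895-85474095) had 67.1 and 76.5 in the LPS libraries, against 283, 411, 298 and 220 in the controls (log2 -2.07 ± 0.28 SE, adjusted p = 1.11e-06). All control values exceeded both LPS values, and the start kept its call with the GC correction (log2 -1.83). The peak 12.2 kb past Fos (log2 -1.60) and the Jund peak (log2 -1.57) lost theirs, at -0.82 and -0.78. Batf, Atf3 and Fosl2 held strong gains. Batf, which pairs with JUN proteins, had 6 peaks open and 0 closed of 16, and its intronic peak at 16.9 kb, with NF-kB but no AP-1 letters, had 110 and 133 in the LPS libraries, against 15.8, 6.83, 4.03 and 7.65 in the controls (log2 3.87 ± 0.42 SE, adjusted p = 4.46e-08). The Atf3 peak at -6.76 kb had 54.9 and 91.5 in the LPS libraries, against 3.96, 1.95, 2.68 and 1.94 in the controls (log2 4.96 ± 0.63 SE, adjusted p = 5e-07), and the Atf3 start had 102 and 95, against 336, 440, 281 and 298 (log2 -1.78). Atf3 encodes a repressor of TLR-induced genes. Distal peaks at -136 kb from Jun (log2 4.20) and -101 kb from Fosl2 (log2 6.51) opened as well.

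Immediate early genes are those that cells transcribe within minutes of a stimulus. The list of these and of MAF factor genes had 75 of 479 peaks open and 83 closed (15.7% and 17.3%, median -0.28), or 56 and 106 with the GC correction. Of 63 near starts 1 opened and 26 closed, or 1 and 22. The Egr1 start had 13.1 and 25.5 in the LPS libraries, against 208, 490, 166 and 77.4 in the controls (log2 -3.58 ± 0.61 SE, adjusted p = 3.03e-05). The Egr2 and Myc starts had log2 -2.69 and -2.79. At Nr4a1, an orphan nuclear receptor, 0 peaks opened and 7 closed of 17, at Btg2, an antiproliferative gene, 0 and 9 of 24, and at Klf2, a regulator of quiescence, 1 and 8 of 23. Klf4 opened at -9.42 kb (log2 3.91) and closed at its start (log2 -1.84). Bach1, a heme-regulated repressor that pairs with small MAF proteins, went the other way, with 11 peaks open and 2 closed of 30. Its intronic peak at 26.0 kb had 169 and 193 in the LPS libraries, against 3.96, 2.93, 2.68 and 1.29 in the controls (log2 6.51 ± 0.57 SE, adjusted p = 2.45e-09). The intronic peak of Nfe2l2, which encodes the antioxidant factor NRF2, had log2 4.18.

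The list of LPS-inducible cytokine genes had the largest share of opening peaks among the lists drawn up. Its members were picked as inducible by LPS, with earlier results of these data known, so its rank does not describe cytokine genes at large. Of 229 tested peaks 84 opened (36.7%) and 15 closed (6.55%), or 73 and 24 with the GC correction, and the median was 0.63. AP-1 letters were in 29 of the 84 (34.5%), below the 44.0% of all opening peaks. At Il27 6 of 6 peaks opened, at Il1rn, the interleukin-1 receptor antagonist, 10 of 13, at Ifnb1 and at Tnfsf15 7 of 9 each, and at Il10, an anti-inflammatory cytokine, 11 of 21. The Il10 peak at -18.8 kb had 30.5 and 66.0 in the LPS libraries, against 0, 0, 0 and 0.921 in the controls (log2 6.06 ± 0.73 SE, adjusted p = 2.1e-07). The Il27 peak at -8.99 kb (chr7:126603796-126603996) had 38.3 and 44.8 in the LPS libraries, against 0, 0, 1.34 and 1.11 in the controls (log2 5.43). The LPS libraries were far above the controls at both. The Il1rn peak at -3.66 kb was already open, with 143 and 158 in the LPS libraries and 29.0 to 34.1 in the controls (log2 2.24). At Il1b a peak at -14.4 kb had 39.2 and 54.5 in the LPS libraries, against 1.32, 2.93, 1.34 and 1.29 in the controls (log2 4.82), and 3 other Il1b peaks of 16 closed.

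Of 41 cytokine peaks within 1 kb of a start 8 opened (19.5%) and 2 closed, or 6 and 4 with the GC correction. The start of Ifnb1, the first interferon made after TLR4 signalling, had 14.8 and 58.9 in the LPS libraries, against 5.27, 9.75, 2.68 and 2.30 in the controls (log2 3.08 ± 0.69 SE, adjusted p = 0.000756), so that the LPS libraries differed among themselves while both exceeded the controls. The start of Csf3, the granulocyte growth factor, had 30.5 and 80.9, against 1.32, 10.7, 5.37 and 0 (log2 4.30). The Il15 and Il18 starts had log2 1.52 and 1.17. Without LPS replicate 2 the Ifnb1, Il15 and Il18 starts were no longer called, and Il18 was not called with the GC correction either. Tnf had 1 peak open of 6 and Il6 2 open and 3 closed of 11. Il12b, which encodes the p40 chain of interleukin 12, closed at -22.0 kb, with 57.5 and 31.7 in the LPS libraries, against 154, 230, 157 and 166 in the controls (log2 -1.99).

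Chemokine genes had 47 of 178 peaks open (26.4%) and 9 closed (median 0.26), or 39 and 18 with the GC correction. Cxcl1, a neutrophil attractant, had 6 of 17 peaks open, and Ccl3 and Ccl4, which attract monocytes and lymphocytes, 5 of 12 each. The Cxcl11 peak at -5.96 kb (chr5:92369157-92369357) had 103 and 130 in the LPS libraries, against 11.9, 13.7, 6.71 and 11.3 in the controls (log2 3.38 ± 0.43 SE, adjusted p = 4.16e-07). The Cxcl5 peak at -13.7 kb had 56.6 and 66.8 in the LPS libraries, against 0, 0, 5.37 and 0.553 in the controls (log2 5.97). Both chemokine peaks were apart from all controls. Ccl17, which attracts type 2 helper T cells, had log2 2.27 at -7.93 kb. The starts of Ccl5, Ccl22 and Cxcl11 had log2 2.13, 1.33 and 3.29, of which the Ccl5 and Ccl22 calls were lost without LPS replicate 2.

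The receptors, STAT factors and SOCS proteins that carry cytokine signals onward had 58 of 248 peaks open (23.4%) and 26 closed (10.5%, median 0.19), or 49 and 35 with the GC correction. Socs3, the inhibitor of interleukin-6 type signalling, had 10 of 22 peaks open and 0 closed, and its peak at -1.86 kb had 44.4 and 70.4 in the LPS libraries, against 0, 0.975, 1.34 and 1.66 in the controls (log2 5.34). Tnfrsf1b encodes TNF receptor 2, and its peak at -27.2 kb (chr4:145273957-145274157) had 85.4 and 127 in the LPS libraries, against 1.32, 0.975, 0 and 0.553 in the controls (log2 7.24 ± 0.72 SE, adjusted p = 1.24e-08). The start of Il1r1, the interleukin-1 receptor, opened with 106 and 159, against 22.4, 38.0, 38.9 and 46.3 (log2 1.82). A peak 1.86 kb into Il6ra, the interleukin-6 receptor, closed (log2 -1.27).

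Interferon-response genes had 79 of 295 peaks open (26.8%) and 23 closed (median 0.36), or 64 and 39 with the GC correction. Of 68 near starts 13 opened and 6 closed, or 8 and 8. Rsad2, the antiviral enzyme viperin, had 7 of 15 peaks open, and its peak at 14.4 kb (chr12:26441916-26442116) had 145 and 170 in the LPS libraries, against 3.96, 2.93, 0 and 3.59 in the controls (log2 5.64 ± 0.53 SE, adjusted p = 6.12e-09). Ifih1, the RNA sensor MDA5, had 7 of 14 peaks open. A peak near Mx1, a dynamin-like antiviral GTPase, had log2 7.17 and one near Trim30a log2 5.62. The starts of Oas1a, Oas3 and Ifit2 had log2 2.79, 1.19 and 1.32, and the Oas3 and Ifit2 calls were lost without LPS replicate 2. The interferon regulatory factors differed. The Irf1 start (chr11:53769824-53770024) had 68.0 and 58.0 in the LPS libraries, against 311, 399, 255 and 188 in the controls (log2 -2.18 ± 0.28 SE, adjusted p = 5.55e-07), and 6 of 23 Irf1 peaks closed. Irf8, a lineage factor of macrophages, held a peak at -10.9 kb with 101 and 120 in the LPS libraries, against 6.59, 10.7, 8.05 and 15.5 in the controls (log2 3.26), and one at 6.80 kb with 16.6 and 7.04, against 84.4, 41.9, 92.6 and 140 (log2 -2.95).

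**Figure D5:**
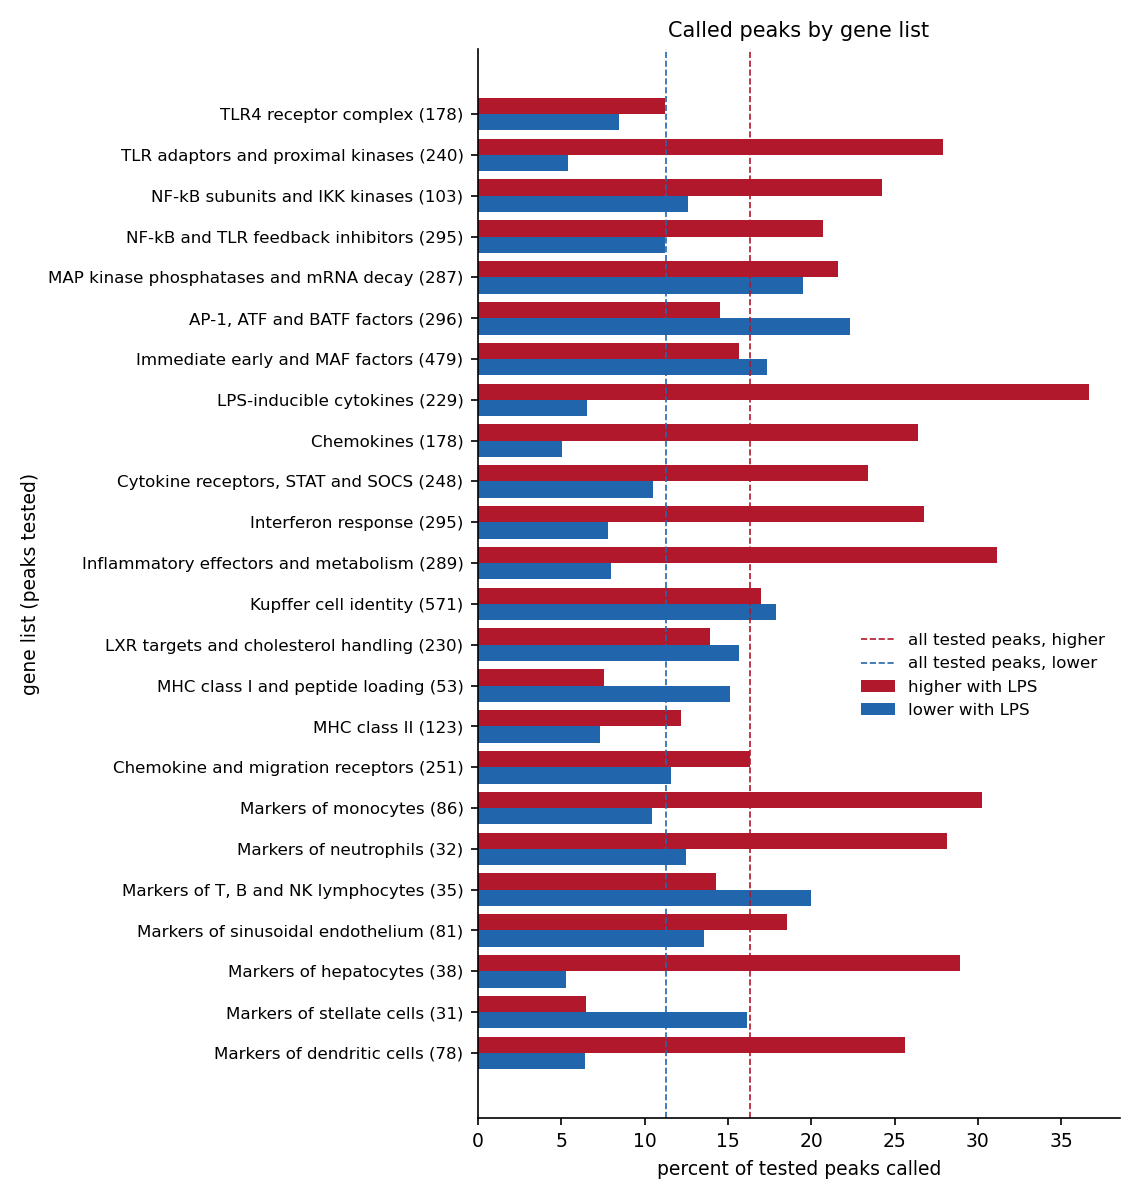
Share of tested peaks of each gene list that were higher or lower in LPS than in control cells, in percent, with dashed lines at the shares of all tested peaks (16.3% higher, 11.3% lower). The cytokine genes, picked as inducible by LPS, have the largest share of higher peaks (36.7%, and 31.9% with the GC correction). The FOS, JUN and ATF list has a larger share of lower peaks (22.3%) than of higher ones.

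Effector and metabolic genes of activated macrophages had 90 of 289 peaks open (31.1%) and 23 closed (median 0.43), or 73 and 33 with the GC correction. Of 57 near starts 14 opened and 10 closed, or 13 and 5. The start of Nos2 (chr11:78920568-78920768), the inducible nitric oxide synthase, had 40.1 and 76.5 in the LPS libraries, against 0, 0.975, 1.34 and 0.921 in the controls (log2 5.92 ± 0.76 SE, adjusted p = 5.32e-07). Ptges encodes the inducible prostaglandin E synthase, and all 3 of its peaks opened, with 52.3 and 53.6 at -21.9 kb (chr2:30925132-30925332) in the LPS libraries, against 0, 0, 0 and 1.01 in the controls (log2 6.10). Both loci were near 0 in every control. Acod1, which makes itaconate, had 5 of 7 peaks open, Plaur, the urokinase receptor, 4 of 5, and Hk2, a hexokinase, 7 of 24. Pfkfb3, an activator of glycolysis, had 111 and 131 at -22.8 kb (chr2:11524792-11524992) in the LPS libraries, against 2.64, 0, 2.68 and 3.69 in the controls (log2 5.37 ± 0.57 SE, adjusted p = 3.17e-08). The start of Lcn2, an iron-withholding lipocalin, had log2 5.33. The start of Nampt, which makes an NAD precursor, closed, with 126 in each LPS library, against 484, 544, 537 and 388 in the controls (log2 -1.95).

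Kupffer cell identity genes changed in both directions. Of 571 peaks 97 opened and 102 closed (17% and 17.9%, median -0.14), so that opening was near the share of all peaks and closing above it. With the GC correction 73 opened and 134 closed (median -0.40). AP-1 letters were in 49 of the 97 that opened (50.5%) and 4 of the 102 that closed (3.92%), near the 44.0% and 3.05% of all called peaks. Near starts 3 opened and 18 closed of 62, or 2 and 22. Rxra, the partner of many nuclear receptors, had 23 of 55 peaks closed and 3 open, Id3, an inhibitor of DNA binding that marks Kupffer cells, 10 closed and 2 open of 25, and Clec4f 9 closed and 1 open of 27. Marco, a scavenger receptor, went the other way, with 12 of 22 peaks open and 0 closed. The start of Clec1b (chr6:129396893-129397093), the podoplanin receptor CLEC-2, had 24.4 and 15.8 in the LPS libraries, against 88.3, 97.5, 134 and 103 in the controls (log2 -2.39 ± 0.33 SE, adjusted p = 1.34e-06). The Clec4f start had 23.5 and 21.1 in the LPS libraries, against 29.0, 19.5, 88.6 and 89.0 in the controls (log2 -1.37, adjusted p = 0.0367), so that its groups overlapped, and DESeq2 did not call it. The starts of Spic, a factor of iron-recycling macrophages (log2 -0.25, adjusted p = 0.398), and Timd4, a phosphatidylserine receptor (log2 -0.78), were not called. Adgre1, which encodes F4/80, opened at 16.8 kb (45.3 and 45.7, against 1.32, 0, 0 and 1.38, log2 5.34) and closed at its start (50.5 and 75.6, against 190, 216, 161 and 123, log2 -1.43).

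The targets of LXR, the sterol receptor that Kupffer cells depend on, had 32 of 230 peaks open and 36 closed (13.9% and 15.7%, median -0.32), but 18 and 54 with the GC correction. Near starts 1 opened and 12 closed of 39, or 0 and 11. The Apoe start (chr7:19698983-19699183) had 5.23 and 4.40 in the LPS libraries, against 85.7, 44.9, 75.2 and 56.3 in the controls (log2 -3.72 ± 0.49 SE, adjusted p = 7.73e-07). At its neighbour Apoc1 4 of 4 peaks closed. Both genes encode apolipoproteins. Abca1, the cholesterol exporter, had 7 peaks open and 11 closed of 44, with log2 4.31 at -21.8 kb and -1.80 at its start. A peak of Lpl, lipoprotein lipase, had log2 5.00.

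Antigen presentation genes had 22.6% of their class I and 19.5% of their class II peaks called in either direction, against 27.7% of all peaks. Of the class I genes 4 of 53 peaks opened and 8 closed (median -0.14), or 2 and 13 with the GC correction. Of the class II genes 15 of 123 opened and 9 closed (median -0.11), which turned to 13 and 27 with the correction. Ciita, the master activator of class II genes, had 93.2 and 90.6 at -0.504 kb in the LPS libraries, against 15.8, 20.5, 26.8 and 32.6 in the controls (log2 1.87). The receptors of chemotaxis and migration had 41 of 251 peaks open and 29 closed (median -0.05), close to the shares of all peaks (16.3% and 11.6%), which turned to 30 and 45 with the GC correction. Ccr7, which guides cells to lymph nodes, had 6 of 14 peaks open. The start of Cxcr4 (chr1:128592353-128592553), the receptor of CXCL12, closed, with 13.1 and 7.04 in the LPS libraries, against 77.8, 64.4, 129 and 70.3 in the controls (log2 -3.05 ± 0.40 SE, adjusted p = 7.63e-07). The start of Ccr1 opened, with 77.5 and 81.8, against 17.1, 17.6, 22.8 and 17 (log2 2.12).

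Peaks near markers of other cells were read for the make-up of the sorted cells, which were CD45+, F4/80 high and CD146- and came from a fraction freed of hepatocytes by low-speed spins. The counts stand against the 16.3% open and 11.3% closed of all peaks. For monocytes 26 of 86 peaks opened (30.2%) and 9 closed (10.5%), or 18 and 13 with the GC correction, and the summed level was 2878 to 3056 in LPS libraries and 2159 to 2766 in controls. For dendritic cells 20 of 78 opened (25.6%) and 5 closed (6.41%), or 19 and 9, with sums of 2649 to 2720 in LPS libraries and 2129 to 2367 in controls. For hepatocytes 11 of 38 opened (28.9%) and 2 closed (5.26%), or 10 and 5, with sums of 1322 to 1356 in LPS libraries and 1062 to 1124 in controls. Of these 11 none was within 1 kb of a start and 6 lay in introns upstream of Apoa1. Without those 6 the hepatocyte sums were 1084 to 1090 in LPS libraries and 1022 to 1096 in controls and overlapped. The 6 were left out because they opened, which lowers the LPS sums by construction, so this overlap decides nothing. No peak of Alb opened, and the sum over Cps1 peaks was 183 to 191 in LPS libraries and 259 to 369 in controls. The sums of neutrophil markers overlapped between groups (1111 to 1234 in LPS and 1167 to 1263 in control libraries), with 9 of 32 peaks open and 4 closed (28.1% and 12.5%), which turned to 5 and 6 with the correction. Endothelial sums overlapped (3195 to 3200 and 2996 to 3334), with 15 of 81 open and 11 closed (18.5% and 13.6%), or 11 and 14. Stellate cell sums overlapped too (1427 to 1544 and 1210 to 1930), with 2 of 31 peaks open and 5 closed (6.45% and 16.1%), or 1 and 5. Lymphocyte sums were lower in LPS libraries (1208 to 1269) than in controls (1365 to 1611), with 5 of 35 open and 7 closed (14.3% and 20%), or 4 and 11. Monocyte, dendritic cell and hepatocyte sums over all their peaks were thus higher in both LPS libraries than in every control. The part of these cells in the cytokine, chemokine and identity results was not tested. Peaks were tested near 10 of 12 monocyte, 10 of 10 dendritic cell, 9 of 14 hepatocyte, 9 of 14 neutrophil, 12 of 13 endothelial, 4 of 10 stellate and 8 of 15 lymphocyte marker genes. The Kupffer cell markers Clec4f, Timd4, Adgre1 and Spic had open starts in the controls, at 19.5 to 216.

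The response was set beside that of C57BL/6J and of the hybrid. In C57BL/6J 20.4% of tested peaks were called in either direction. Of the BALB/cJ peaks that opened and were tested in both strains, 8570 of 14219 (60.3%) opened in C57BL/6J too, which is 80.4% of its 10664 opening peaks. For closing peaks it was 4489 of 10047 (44.7%), or 63.3% of 7092. Opposite calls were made at 1 opening and 42 closing BALB/cJ peaks. The strains share no libraries, but in C57BL/6J too the names of control and LPS libraries differ in date, trimming and the word Chow, and its control libraries hold no mitochondrial tags. AP-1 letters were in 47.0% of peaks that opened and 2.64% of those that closed in C57BL/6J. In the hybrid, whose tags were counted in a separate table on the BALB/cJ genome with the trimming mark in every library name, 27% of tested peaks were called. Its control columns carry the word chow and its LPS columns do not, so that this name and treatment coincide there too. From perfectly aligned hybrid tags, 10834 of 12762 matched BALB/cJ opening peaks opened (84.9%, or 68.0% of the hybrid's) and 3577 of 7776 closing peaks closed (46.0%, or 50.7%). From all hybrid tags the shares were 77.9% and 17.2% of the BALB/cJ peaks, and 57.8% and 26.3% of the hybrid's. The all-tag and perfect-tag control columns with the same number correlated at only 0.712 to 0.764, against 0.996 to 0.997 for the LPS columns, so the hybrid control columns could not be matched by number. Control columns 1, 2 and 4 also held more perfectly aligned tags than tags in all, with 17845861 against 10597164.5 in column 1. Column 3 and every LPS column held fewer. Which control columns are right is not known, and every hybrid share given here rests on them.

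A direct test of the difference between strains called 136 of 93009 peaks (0.146%), 34 with a larger and 102 with a smaller log2 ratio in BALB/cJ, and 7350 had an unadjusted p under 0.05. The number of larger ratios was 20 without LPS replicate 1, 8 without LPS replicate 2, 59 without control replicate 2 and 21 without control replicate 4 of BALB/cJ, and 21 without either control replicate 1 or 2 of C57BL/6J. Among the larger ones was the Trib1 peak at -137 kb, with a BALB/cJ log2 ratio of 3.54 and a C57BL/6J ratio of 0.47 (difference 3.07, adjusted p = 0.000741). Of the smaller ones on autosomes that were tested in BALB/cJ, 78 of 101 were assigned to Sfi1, Pisd-ps1 or Pisd-ps2. These loci have near-identical copies in the mouse genome, where tags cannot be placed with certainty. Header names show C57BL/6J control and LPS libraries aligned to differently named genomes. Whether either plays a part was not tested. In BALB/cJ itself, within 100 kb of a start, 24 of 54 Pisd-ps1 peaks and 23 of 49 Sfi1 peaks closed and 0 opened. The Il1b peak at -14.4 kb, with log2 4.82 in BALB/cJ and 0.75 in C57BL/6J, did not pass the test of the difference (adjusted p = 0.0727).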

How the data were processed

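ATAC-seq tags of sorted Kupffer cells were compared between 2 LPS and 4 control BALB/cJ libraries. The authors aligned reads with Bowtie2 and made tag directories, peaks and tag tables with HOMER, and the header names show BALB/cJ libraries aligned to a BALB/cJ genome and shifted to mm10 before replicate peaks were merged by irreproducible discovery rate into lists per group. The deposited inbred table gives tag counts per peak that were not normalised. The control columns of all inbred strains and the hybrid columns hold fractional tags, which makes them expected counts, as the authors deposited them. The inbred LPS columns hold whole numbers. The deposited peak files give HOMER tag signal and the merged lists a score, of which only positions, totals and membership were used. The tool versions are not given in the sources used here.

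Tags ending in a fraction were rounded up to whole numbers, and rounding them down instead gave 14549 higher and 10031 lower calls in BALB/cJ. The 17 inbred libraries were fitted in one edgeR 4.0.16 model (TMM, quasi-likelihood, R 4.3.3, limma 3.58.1) with a mean per group, over all nuclear chromosomes (96238 of 96381 peaks). Peaks needed a mean normalised count above 4 over the 6 BALB/cJ libraries, and peaks of the autosomes are reported. Calls needed a Benjamini-Hochberg adjusted p under 0.05 and an absolute log2 ratio over 1. An exact permutation test of 2 against 4 libraries cannot reach p = 0.05. Of the counting windows 44095 overlap another, so that neighbouring peaks share tags. The strain difference was the interaction term of the same model. CB6F1/J libraries were fitted alone on their own table of tags aligned to the BALB/cJ genome, and peaks were matched by at least 50% reciprocal overlap (78057 pairs). The fits were tested on simulated data.

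Peaks were assigned to the nearest start within the annotation of the table. The 17 gene lists (341 genes) and 7 marker lists, the motifs and the members were chosen with earlier results of these data known. Named peaks are, in each direction, the 14 of largest log2 ratio within 100 kb of a start whose groups do not overlap, at a mean normalised count of at least 20 in the higher group and 1 per annotated gene, then up to 6 genes per list and direction by the smallest p, and start peaks of list genes, of which a part is given. Alternatives were DESeq2 1.42.0, its size factors, total counts, other minimums, thinning, a GC correction, windows without overlap, the replicate number as a block and leaving out each library. Perfectly aligned hybrid tags and control replicate 4 as the only control were added after seeing the data. Standard errors come from the same fit and include the spread between libraries, whereas floors cover counting error only. Peak files of other groups were not used.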

Additional observations from a re-analysis of the deposited data

Results flagged for a closer look

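In groups of 4 to 10 libraries, values whose gap to the nearest other exceeded Dixon's critical value are given here, and chance alone marks about 1 in 20 groups. Each is a BALB/cJ control library, given as normalised count, that stood apart from the other controls. At opening peaks the highest control value was 1.32 at Tnip1, 1.34 at Hdac9 and at Itgb8, 0.0921 at Lzts1, Alkbh3 and Fosl2, 0.921 at Il10, 2.93 at Il1b, 1.57 at Tnfsf15, 5.37 at Cxcl5 and 1.01 at Ptges. All of these were below both LPS libraries. The starts of Ccl22 and Ccr1 had a highest control of 60.5 and 22.8. At closing peaks, Msh6 had a lowest control of 3.59 against 41.6 to 46.1 in the others, and Il12b a highest control of 230. The Tlr4 start had a lowest control of 342. The sum of tags in nuclear peaks was 47196703 in control replicate 4, against 3147558 to 4584816 in the other controls. The response of the Trib1 peak at -137 kb was larger in BALB/cJ than in C57BL/6J by log2 3.07.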

How the results depend on the processing

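Of 2760 values of 143 named peaks under the alternatives, 2704 kept direction and side of the threshold, 47 lost the call, 9 gained it and 0 reversed, and 118 of the 139 called peaks kept their call throughout. Against 25262 calls in BALB/cJ, a minimum of 16 gave 15999 (8262 higher) and windows without overlap 13338 (8668 higher, 4670 lower), with fewer peaks tested in each. Total counts gave 67.0% of calls higher, and the GC correction 47.5%, against 59.0%. Leaving out each library gave 15900 to 25162 calls, 10194 to 14760 higher and 5706 to 10402 lower, the lowest of each without LPS replicate 2. With control replicate 4, the deepest library, as the only control, 11368 were higher and 7541 lower. Replicate numbers did not pair the samples (r = -0.0024 and 0.072 for same numbers). The replicate block gave 19477 calls in BALB/cJ (11354 higher), with the GC correction 8192 higher, 106 in the strain difference (13 larger) and 56560 in the hybrid. For the strain difference DESeq2 gave 57 larger, and leaving out each library 8 to 59 larger and 76 to 186 in all. For the hybrid, against 22101 lower calls, DESeq2 gave 33778, total counts 36570 and a minimum of 16 gave 14500, and variant-spanning tags gave 4183 calls (2666 higher, 1517 lower). Where no construction explains a move, the cause was not tested. Of 680 list counts 552 stayed within the limit. At the depth of most libraries, peaks near the minimum count are measured with large errors.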

Other observations

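Among all genes, without any list, those with the most opening peaks in BALB/cJ were Ptprj, which encodes a receptor tyrosine phosphatase (24 of 68 tested peaks open, 4 closed), Dock10, a guanine nucleotide exchange factor (18 of 45, 1 closed), Foxp1, a forkhead factor of monocyte differentiation (18 of 49, 3 closed), and Hdac9 (17 of 23, 0 closed). Dst, a cytoskeletal linker, had 16 of 32 peaks open and 0 closed. At Rasgef1b, a Ras exchange factor, 20 of 79 peaks closed. These counts rise with the number of peaks near a gene and were not tested.

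The 7-mer TGACTAA, a near match of TGACTCA, was in 11.6% of opening, 4.74% of all and 1.26% of closing peaks beyond 1 kb from a start. Letters close to TGANTCA thus followed the same pattern in these peaks, as a description with no test.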
